A study of Mus musculus with 10 samples.

Results

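Interferon-stimulated genes are the genes that a cell switches on when interferon binds its receptors. The 46 genes described here were taken by their symbol from the table of gene counts, out of 55421 gene identifiers, and cover the responses to type I and type II interferon, the cytosolic sensors of nucleic acid and MHC class I antigen presentation. In livers whose hepatocytes had been targeted for loss of histone H3.3, 21 of the 46 rose against all controls together, 4 fell and 21 did not pass the test. The immunoproteasome subunits Psmb8 and Psmb9, the guanylate-binding proteins Gbp2 and Gbp5, the sensor Cgas with its partner Tmem173, and Oas2 and Oas3 were among those that rose. Irf9, Ifi35, B2m and H2-K1 fell. Isg15, Usp18, Rsad2, Stat2 and Ifit3 did not pass the test against all controls together, although Isg15 and Usp18 passed upwards once the control liver highest in most members was left out.

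The RNA came from whole livers of 10 male mice that were injected with an AAV8 virus at 6 months of age and analysed 3 weeks later by poly(A) RNA-seq. H3f3a and H3f3b both encode H3.3, and KO livers (n = 4) came from H3f3a fl/fl H3f3b fl/fl C57BL/6 mice that received AAV8 Tbg-Cre. WT Cre controls (n = 3) were wild-type mice, of a strain that the labels do not name, with the same Cre virus. MCS controls (n = 3) had the floxed genotype of the KO mice and received AAV8 Tbg-MCS, which carries no Cre. All 10 mice therefore carried an AAV8 vector, and no liver without virus was measured. Tbg is a hepatocyte promoter, so the virus was directed at hepatocytes, and both genes should remain intact in other liver cells. In RNA of a whole organ, fewer cells of a type and less RNA per cell cannot be told apart.

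Type I interferons act through a receptor and the kinases JAK1 and TYK2 on factors that include STAT2 and IRF9 and bind a promoter element named ISRE, while interferon gamma acts through JAK1 and JAK2 on genes with an element named GAS. The induced proteins sense foreign RNA and DNA, block viral replication, attach the ubiquitin-like protein ISG15 to other proteins, coat vacuoles that hold pathogens and load peptides onto MHC class I. In the liver, hepatocytes, Kupffer cells, endothelial cells and lymphocytes can all respond to interferon.

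The promoter elements are visible in the reference sequence of several members. A set of 6 windows, each 60 bases long, was chosen to show an ISRE in members that rose (Gbp2, Gbp5, Oas3), in one that fell (B2m) and in a pair that depended on the kind of control (Ifit1, Isg15). They read 5′ to 3′ in the direction of the gene, lie before the start that RefSeq gives, and come from RefSeq on GRCm38.p6. In the GENCODE annotation, used for all other positions, the Gbp5 window lies inside the gene and the Gbp2 window spans its start. The capitals mark each match to GAAANNGAAA or to its reverse complement. The positions are chr3:142620579-142620638 (plus strand) for Gbp2, chr3:142496744-142496803 (plus) for Gbp5, chr5:120777700-120777759 (minus) for Oas3, chr2:122147523-122147582 (plus) for B2m, chr19:34640779-34640838 (plus) for Ifit1 and chr4:156200850-156200909 (minus) for Isg15.
Gbp2: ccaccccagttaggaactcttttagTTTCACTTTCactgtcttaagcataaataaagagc
Gbp5: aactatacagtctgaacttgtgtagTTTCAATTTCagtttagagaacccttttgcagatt
Oas3: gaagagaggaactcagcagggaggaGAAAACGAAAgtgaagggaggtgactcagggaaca
B2m: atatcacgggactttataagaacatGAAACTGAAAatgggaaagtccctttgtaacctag
Ifit1: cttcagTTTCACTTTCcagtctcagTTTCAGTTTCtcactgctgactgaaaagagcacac
Isg15: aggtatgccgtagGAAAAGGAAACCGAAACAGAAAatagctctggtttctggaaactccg

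Total counts ran from 14998426 in KO 1 to 26096141 in MCS control 1, and replicates of a group were not repeats of one library. The knockout was checked on its targets. H3f3a lay between 59.9 and 63.7 CPM (counts in proportion to a library size adjusted by TMM) in the 6 controls and between 16.0 and 19.0 CPM in the KO livers. H3f3b lay between 136 and 204 CPM in the controls and between 39.8 and 56.7 CPM in KO. A single control liver stood apart in the interferon genes. WT Cre control 2 was the highest of the 6 controls in 35 of the 46 members (76.1%), and in 14.3% of all genes tested. KO 1, the shallowest library, exceeded every control in 13 members, whereas KO 2, 3 and 4 did so in 21, 23 and 19. KO 1 was the lowest of the KO livers over all genes as well. The shares of all genes above every control were 24.7% in KO 1 and 29.4% to 31.5% in the other KO livers.

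Does loss of H3.3 from hepatocytes change the interferon-stimulated genes of the liver? Against the 6 controls, 21 of 46 members rose (45.7%), beside 19.7% of all 22449 genes tested. In the other direction 4 members fell (8.7%), beside 16.6% of all genes. "Rose" and "fell" mean an adjusted p under 0.05 in edgeR's quasi-likelihood test. With a log2 fold change past 1 as well, 11 members rose, beside 12.9% of all genes, and none fell, beside 5.79%. Without that fold, 29 members in either direction had an unadjusted p under 0.05, beside 10173 of the 22449 genes. DESeq2 counted 1 member that fell past the fold, which was Ifit1. In edgeR the log2 fold change of Ifit1 was -1.07, and it did not pass the test (adjusted p = 0.112). The median log2 fold change was 0.44 over the members and -0.00299 over all genes tested. In 9 members (Cgas, Gbp2, H2-D1, Irf1, Isg20, Oas3, Psmb8, Tap2 and Tmem173) every KO liver lay above every control, a separation seen in 12.5% of all genes. In the 4 members that fell every KO liver lay below every control, as in 12.0% of all genes. Without WT Cre control 2, 24 members rose and 3 fell, with a median of 0.56 beside -0.00646 over all genes. Every KO liver then lay above the 5 other controls in 17 members, beside 13.2% of all genes. That liver was left out because it was the highest control in most members, so this count could only rise. The share of all genes is therefore not a like measure for it. Without KO 1, 23 rose and 5 fell. With the replicate number as a block 19 rose and 2 fell, and with the kinds of control as separate groups in the fit 22 rose and 6 fell. Scaling to library size alone moved the median of all genes by 0.18 on the log2 scale and gave 23 that rose and 2 that fell. The shares of all genes that passed under these alternatives are not given here.

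**Figure D1:**
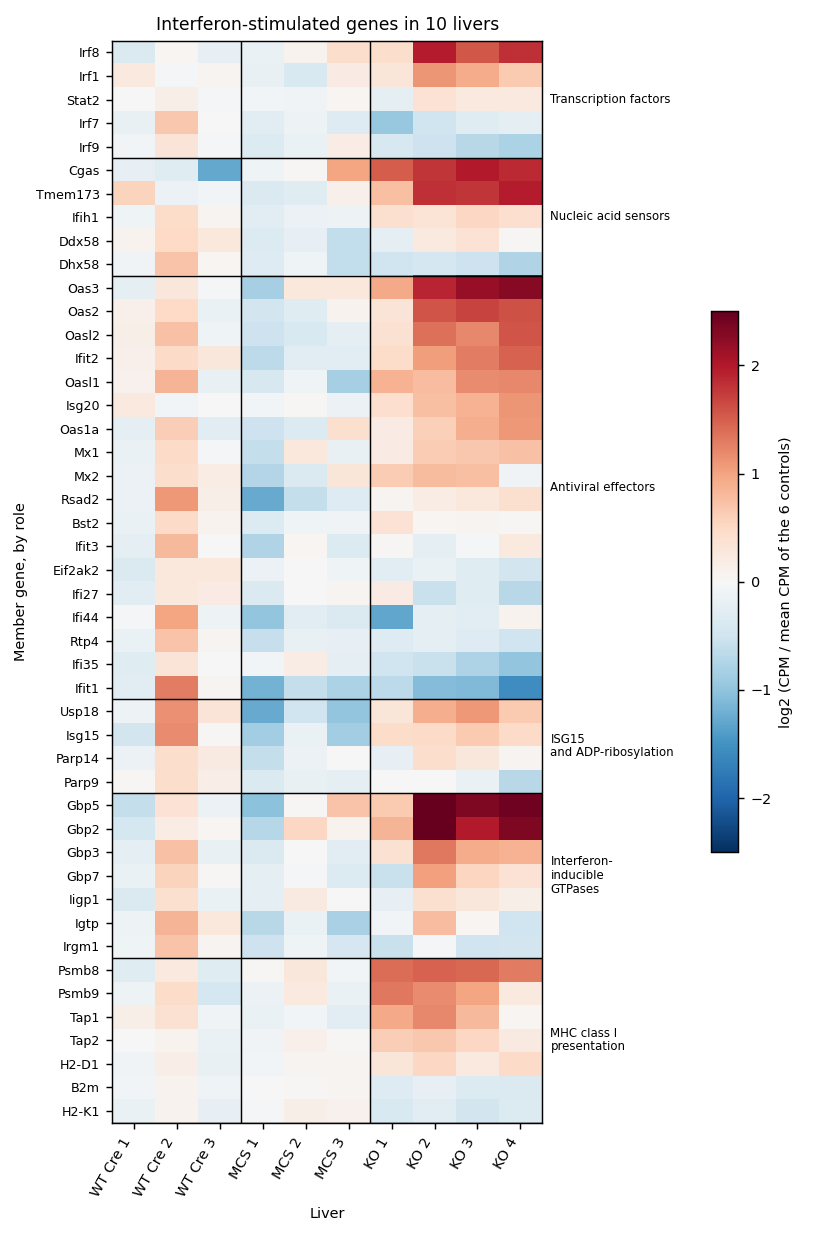
Expression of each of the 46 members (vertical axis, grouped by role) in each of the 10 livers (horizontal axis), as log2 of CPM over the mean CPM of the 6 controls; the colours stop at the ends of the scale. The second WT Cre column is red in most members, and the KO columns are red in Psmb8, Gbp2, Oas3, Cgas and Tmem173 and blue in Ifi35 and Irf9.

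Among the 5 transcription factors, Irf1 and Irf8 rose, Irf9 fell, and Stat2 and Irf7 did not pass the test. Irf8, a factor of macrophages, dendritic cells and B cells, measured 5.13, 6.85 and 5.68 CPM in WT Cre controls 1 to 3, 5.90, 7.01 and 8.94 CPM in MCS controls 1 to 3, and 8.93, 25.5, 19.3 and 23.4 CPM in KO 1 to 4. KO 1 lay among the controls and the other KO livers above all of them (log2 fold change 1.56, SE 0.25, edgeR adjusted p = 0.000563). The annotation places the predicted gene Gm20388 on the same strand across Irf8, so reads of the 2 genes could be shared, and the table of FPKM values was blank for Irf8 in all 10 livers. Irf1, which drives genes of antigen presentation, measured 29.4, 24.4 and 26.1 CPM in the WT Cre livers, 22, 19.2 and 28.6 CPM in the MCS livers, and 30.8, 53.9, 47.3 and 39.3 CPM in the KO livers. Here all 4 KO livers lay above all 6 controls (log2 fold change 0.78, SE 0.15, edgeR adjusted p = 0.00164). Irf9, the DNA-binding subunit of the factor that binds the ISRE, measured 45.6, 59.8 and 46.6 CPM in the WT Cre livers, 37.7, 42.6 and 54.3 CPM in the MCS livers, and 36.2, 33.3, 29.7 and 27.5 CPM in the KO livers. Every KO liver lay below every control (log2 fold change -0.59, SE 0.13, edgeR adjusted p = 0.00345). Irf9 overlaps Rnf31 on the same strand, and its call was lost on FPKM values (log2 fold change -0.36, adjusted p = 0.119 in limma). Stat2, the partner of Irf9, measured 89.7, 100.5 and 87.6 CPM in the WT Cre livers, 86.3, 84.6 and 93.6 CPM in the MCS livers, and 76.8, 116, 108 and 107 CPM in the KO livers. KO 1 lay below all controls and KO 2 to 4 above all of them (log2 fold change 0.17, SE 0.11, edgeR adjusted p = 0.263), although it passed the test without KO 1 (log2 fold change 0.29, adjusted p = 0.0167) and under scaling to library size alone. Irf7, the factor that amplifies type I interferon production, averaged 57.5 CPM in the controls and 41.6 CPM in KO, with an adjusted p of 0.0945.

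Of the 5 nucleic acid sensors, Cgas, Tmem173 and Ifih1 rose and none fell. Cgas encodes the cytosolic DNA sensor that makes the messenger cGAMP. It measured 0.417, 0.390 and 0.198 CPM in WT Cre controls 1 to 3, 0.448, 0.491 and 0.950 CPM in MCS controls 1 to 3, and 1.37, 1.66, 1.90 and 1.76 CPM in KO 1 to 4. Its level was low in all livers, yet every KO liver exceeded every control (log2 fold change 1.82, SE 0.31, edgeR adjusted p = 0.000603). Tmem173, also named STING, is the receptor for cGAMP. Its values were 3.25, 2.00 and 2.10 CPM in the WT Cre livers, 1.71, 1.79 and 2.40 CPM in the MCS livers, and 3.71, 7.79, 7.63 and 8.61 CPM in the KO livers. KO 1 was the lowest of the KO livers and still above the highest control (log2 fold change 1.66, SE 0.24, edgeR adjusted p = 0.000181). Ifih1 (MDA5), a sensor of long double-stranded RNA, measured 36.1, 53.8 and 41.2 CPM in the WT Cre livers, 32.3, 35.4 and 35.8 CPM in the MCS livers, and 51.5, 49.6, 56.3 and 52.1 CPM in the KO livers. WT Cre control 2 reached the level of KO and the other 5 controls lay below it (log2 fold change 0.42, SE 0.13, edgeR adjusted p = 0.0205). The adjusted p of Ifih1 was 0.0617 without KO 3. Ddx58 (RIG-I), the sensor of RNA with a 5′ triphosphate, measured 34.5, 46.1 and 39.1 CPM in the WT Cre livers, 25.6, 28.1 and 21.3 CPM in the MCS livers, and 27.6, 38.5, 41.8 and 33.2 CPM in the KO livers. Its KO livers overlapped with both kinds of control (log2 fold change 0.12, SE 0.20, edgeR adjusted p = 0.68). Dhx58 (LGP2), a relative of both helicases, had means of 16.3 CPM in the controls and 11.1 CPM in KO and did not pass the test (adjusted p = 0.0604).

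The 18 antiviral effectors split, with 8 that rose, 1 that fell and 9 that did not pass the test. Oligoadenylate synthetases make the messenger that activates RNase L, and all 5 members of the Oas and Oasl families rose. Oas3 measured 1.13, 1.60 and 1.27 CPM in WT Cre controls 1 to 3, 0.733, 1.56 and 1.56 CPM in MCS controls 1 to 3, and 2.54, 4.90, 5.90 and 6.31 CPM in KO 1 to 4. Each KO liver lay above each control (log2 fold change 1.92, SE 0.27, edgeR adjusted p = 0.000137). Oas2 measured 4.92, 6.38 and 4.01 CPM in the WT Cre livers, 3.26, 3.66 and 4.81 CPM in the MCS livers, and 5.67, 13.4, 14.6 and 13.5 CPM in the KO livers. KO 1 lay within the range of the controls and the other KO livers well above it (log2 fold change 1.39, SE 0.25, edgeR adjusted p = 0.000936). Oas1a (0.75), Oasl1 (1.02) and Oasl2 (1.21), each given as a log2 fold change, also rose, with adjusted p-values from edgeR of 0.0286, 0.0128 and 0.00367. Oas1a has near-identical neighbours, so its share of their reads is uncertain. Ifit2, whose product binds viral RNA, rose by 1.11 on the log2 scale (adjusted p = 0.00215), whereas its neighbours Ifit1 and Ifit3 did not pass the test. Isg20, an exonuclease, rose by 0.81 and Mx1 by 0.58 on the log2 scale (adjusted p = 0.00145 and 0.0451). With the replicate block Oas1a, Oasl1 and Mx1 did not pass. Without WT Cre control 1 or 3, MCS control 1, KO 3 or KO 4 neither Mx1 nor Oas1a passed, and Mx1 was also lost without MCS control 3 or KO 2 and Oas1a without MCS control 2.

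Ifi35 was the effector that fell. It measured 22.1, 34.3 and 27.2 CPM in the WT Cre livers, 25.9, 30.8 and 23.2 CPM in the MCS livers, and 19.2, 18.6, 15.9 and 13.8 CPM in the KO livers. No KO liver reached the lowest control (log2 fold change -0.69, SE 0.14, edgeR adjusted p = 0.00193). Bst2 (tetherin), which holds budding viruses at the membrane, had the highest CPM of the effectors, at 114, 177 and 135 CPM in WT Cre controls 1 to 3, 99.5, 117 and 119 CPM in MCS controls 1 to 3, and 164, 131, 133 and 129 CPM in KO 1 to 4. Its groups overlapped and KO 1 was the highest KO liver (log2 fold change 0.13, SE 0.15, edgeR adjusted p = 0.522). Rsad2 (viperin), Mx2, Ifi27, Ifi44, Rtp4 and Eif2ak2 (PKR) did not pass the test either, with log2 fold changes from -0.34 in Rtp4 to 0.56 in Mx2. The annotation lists Mx2 as a polymorphic pseudogene.

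None of the 4 genes of ISG15 conjugation and ADP-ribosylation passed the test against the 6 controls in edgeR or in DESeq2, and none had an unadjusted p under 0.05 in edgeR. Usp18, the protease that removes ISG15 and also restrains the type I receptor, measured 18.3, 44.2 and 25.0 CPM in WT Cre controls 1 to 3, 8.35, 14.2 and 10.1 CPM in MCS controls 1 to 3, and 24.8, 37.4, 42.3 and 31.4 CPM in KO 1 to 4. The KO livers lay above all controls other than WT Cre control 2 and, for KO 1, WT Cre control 3 (log2 fold change 0.76, SE 0.44, edgeR adjusted p = 0.21). Without WT Cre control 2 the log2 fold change was 1.16 and Usp18 passed the test (adjusted p = 0.0165 in edgeR). It also passed when the kinds of control were kept as separate groups in the fit (log2 fold change 0.93, adjusted p = 0.0158 in edgeR). Isg15 itself measured 15.2, 47.0 and 21.2 CPM in the WT Cre livers, 11.4, 18.4 and 11.4 CPM in the MCS livers, and 28.4, 29.0, 32.9 and 28.9 CPM in the KO livers. Its KO livers stood close together, above 5 of the controls and below the sixth, WT Cre control 2, and without that control Isg15 passed the test upwards. Parp9, a partner of DTX3L in ADP-ribosylation, measured 77.3, 103 and 85.7 CPM in the WT Cre livers, 59.1, 66.6 and 64.9 CPM in the MCS livers, and 75.5, 76.2, 68.0 and 47.3 CPM in the KO livers, with overlapping groups (log2 fold change -0.19, SE 0.17, edgeR adjusted p = 0.421). Parp14 had a log2 fold change of 0.16 and an adjusted p of 0.521.

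The interferon-inducible GTPases fell into 2 families. Of the guanylate-binding proteins, which attack the membranes of pathogens and their vacuoles, Gbp2, Gbp3 and Gbp5 rose and Gbp7 did not pass the test. Gbp2 measured 4.21, 6.51 and 5.87 CPM in WT Cre controls 1 to 3, 3.46, 8.17 and 6.04 CPM in MCS controls 1 to 3, and 10.3, 44.7, 22.5 and 28.9 CPM in KO 1 to 4. KO 1 lay nearest to the controls, and no KO liver overlapped with them (log2 fold change 2.23, SE 0.36, edgeR adjusted p = 0.001). Gbp5 measured 1.04, 2.04 and 1.43 CPM in the WT Cre livers, 0.773, 1.61 and 2.57 CPM in the MCS livers, and 2.48, 11.5, 7.92 and 8.53 CPM in the KO livers. KO 1 lay just under MCS control 3, the highest control, and KO 2 to 4 lay above it (log2 fold change 2.29, SE 0.39, edgeR adjusted p = 0.000987). Gbp3 rose by 0.91 on the log2 scale (adjusted p = 0.00761), and Gbp7 had a log2 fold change of 0.45 (adjusted p = 0.202). The immunity-related GTPases Iigp1, Igtp and Irgm1 did not pass the test. Iigp1, the most abundant of the GTPases in CPM, measured 329, 563 and 376 CPM in the WT Cre livers, 363, 496 and 420.3 CPM in the MCS livers, and 369, 561, 515 and 468 CPM in the KO livers, with overlapping groups (log2 fold change 0.17, SE 0.16, edgeR adjusted p = 0.45). Igtp overlaps Irgm2 on the same strand and Gbp genes resemble each other, so reads could be split or shared among them.

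**Figure D2:**
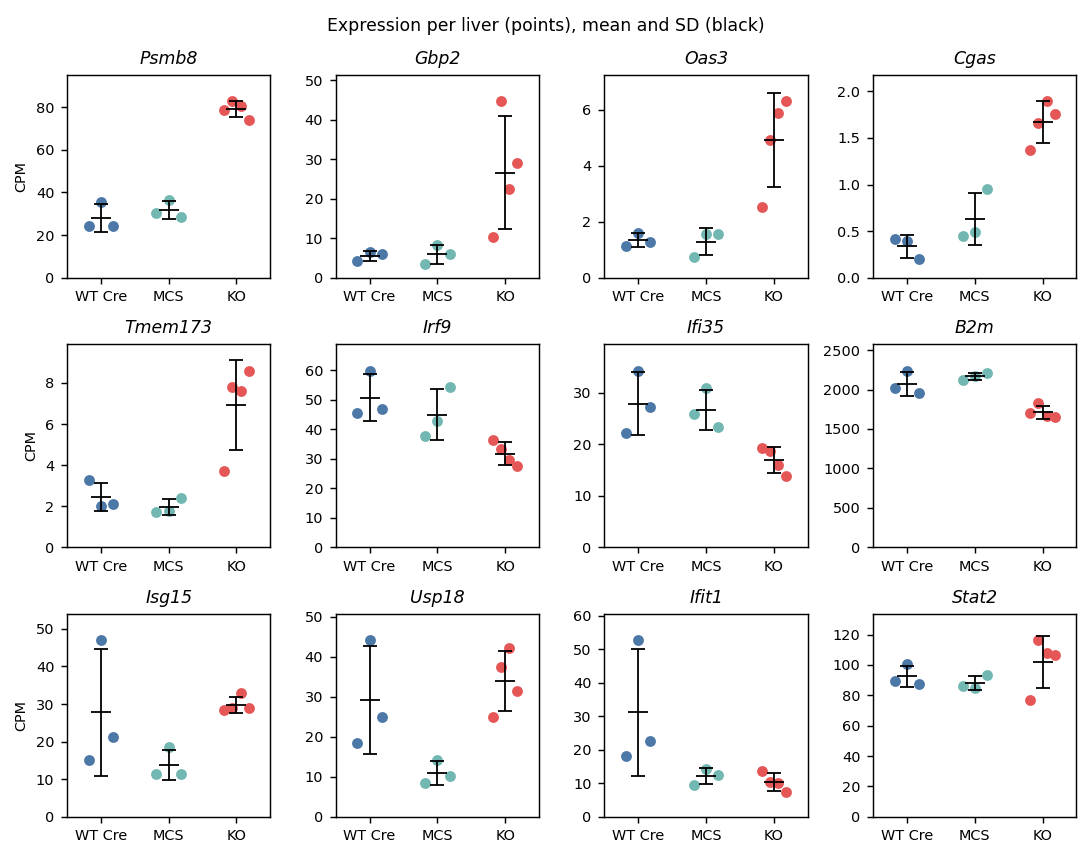
CPM (vertical axes, from 0) of 12 members in each liver (points), with the mean and SD of WT Cre (n = 3), MCS (n = 3) and KO (n = 4) in black. Psmb8 parts the groups most cleanly, Irf9, Ifi35 and B2m are lower in all KO livers, and a single WT Cre point lies far above the other controls in Isg15, Usp18 and Ifit1.

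All 7 genes of MHC class I presentation passed the test, 5 upwards and 2 downwards. The 4 genes of peptide supply lie within 34.3 kb at chr17:34181987-34216321 (mm10) and all rose. Psmb8 and Psmb9 encode catalytic subunits of the immunoproteasome. Psmb8 measured 24.3, 35.6 and 24.3 CPM in WT Cre controls 1 to 3, 30.3, 36.3 and 28.4 CPM in MCS controls 1 to 3, and 78.6, 82.8, 80.7 and 73.8 CPM in KO 1 to 4. The KO livers stood close together, KO 1 included, and far above the highest control (log2 fold change 1.40, SE 0.12, edgeR adjusted p = 4.84e-06). Psmb9 measured 15.7, 23.5 and 12.6 CPM in the WT Cre livers, 15.4, 20.2 and 15.3 CPM in the MCS livers, and 42.7, 38.7, 33.9 and 20.3 CPM in the KO livers. KO 4 lay within the controls and KO 1 was the highest (log2 fold change 0.98, SE 0.21, edgeR adjusted p = 0.00331). Tap1 and Tap2, which form the peptide transporter, rose by 0.81 and 0.51 on the log2 scale (adjusted p = 0.00604 and 0.00158). Psmb9 and Tap1 overlap on opposite strands.

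The genes of the class I complex itself did not move together. H2-D1, a heavy chain, averaged 539 CPM in the controls (SD 46.7, n = 6) and 708 CPM in KO (SD 65.0, n = 4), with all KO livers above all controls (log2 fold change 0.40, SE 0.11, edgeR adjusted p = 0.0117). H2-K1, the other heavy chain, measured 1139, 1349 and 1108 CPM in the WT Cre livers, 1256, 1414 and 1380 CPM in the MCS livers, and 982, 1056, 926 and 1012 CPM in the KO livers. B2m, the light chain of the complex, measured 2018, 2240 and 1957 CPM in the WT Cre livers, 2119, 2176 and 2210 CPM in the MCS livers, and 1704, 1832, 1665 and 1653 CPM in the KO livers. No KO liver reached the lowest control in either gene. The log2 fold changes were -0.36 for H2-K1 (SE 0.11, edgeR adjusted p = 0.0234) and -0.31 for B2m (SE 0.10, adjusted p = 0.031). Scaling to library size alone left -0.18 and -0.13, and neither then passed (adjusted p = 0.194 and 0.323). Neither passed on FPKM values or with the replicate block (adjusted p = 0.0575 for H2-K1 and 0.111 for B2m in that block). H2-K1 was also lost without MCS control 2 or KO 3, and B2m without WT Cre control 2, MCS control 1 or 2, KO 2, KO 3 or KO 4. Class I heavy chains share long stretches of sequence, and reads could be split between them.

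Which kind of control was used changed what was called. Against WT Cre, 16 members rose and 7 fell (34.8% and 15.2%), beside 15.3% and 13.1% of all genes, and the median log2 fold change over the members was 0.24. Against MCS, 26 rose and 4 fell (56.5% and 8.7%), beside 17.3% and 14.8% of all genes, and the median was 0.65. Both comparisons use the same KO livers. The 16 that rose against both were Cgas, Gbp2, Gbp5, H2-D1, Ifit2, Irf1, Irf8, Isg20, Oas2, Oas3, Oasl2, Psmb8, Psmb9, Tap1, Tap2 and Tmem173, and Ifi35 and Irf9 fell against both. Ddx58, Gbp3, Ifih1, Isg15, Mx1, Mx2, Oas1a, Oasl1, Rsad2 and Usp18 passed upwards against MCS alone. Dhx58, Ifit1, Irf7, Irgm1 and Rtp4 passed downwards against WT Cre alone, and B2m and H2-K1 against MCS alone.

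Ifit1 and Usp18 show the pattern. Ifit1 measured 18.1, 52.8 and 22.6 CPM in WT Cre controls 1 to 3, 9.57, 14.3 and 12.6 CPM in MCS controls 1 to 3, and 13.8, 10.2, 10.0 and 7.42 CPM in KO 1 to 4. Each WT Cre value exceeded each KO value, MCS control 2 lay above every KO liver, and the other MCS values lay within the range of KO. Its log2 fold change was -1.59 against WT Cre (adjusted p = 0.00919) and -0.23 against MCS (adjusted p = 0.667). For Usp18 the same quantity was 0.22 against WT Cre (adjusted p = 0.628) and 1.64 against MCS (adjusted p = 0.00383). Psmb8 differed less between the comparisons, at 1.49 (SE 0.15) against WT Cre and 1.32 (SE 0.15) against MCS. Gbp2 stood at 2.27 and 2.18 and Oas3 at 1.89 and 1.96 in the same order.

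**Figure D3:**
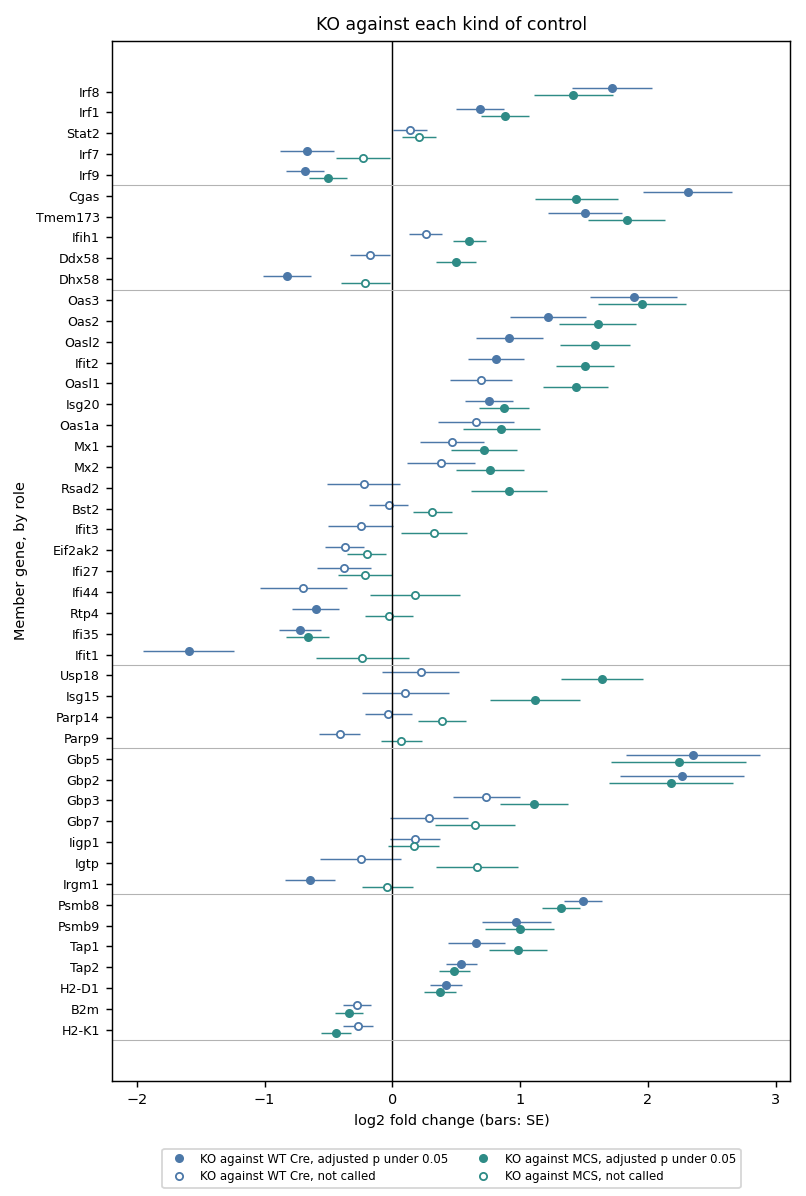
The log2 fold change of KO over WT Cre (blue) and over MCS (green) for each of the 46 members, by role, with SE as bars; filled points have an adjusted p under 0.05. Green points lie to the right of blue ones in most antiviral effectors, Isg15 and Usp18. The points of most MHC class I genes lie close together, and those of Tap1 lie furthest apart among them.

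The difference between the 2 kinds of control was tested directly. No member passed the edgeR test between WT Cre and MCS, beside 0.441% of all genes that were higher in WT Cre and 0.486% that were lower. The lowest adjusted p among the members was 0.0938, for Ddx58. Outside the members, 3 of the 54 further interferon-stimulated genes described below were called higher in WT Cre than in MCS. Irf2 was called lower in WT Cre (edgeR adjusted p = 0.0485). At an unadjusted p under 0.05, 15 members were higher in WT Cre and 1 was lower, beside 2397 of the 22449 genes in either direction. With the replicate number as a block, 4 members were higher in WT Cre (Ddx58, Igtp, Irgm1 and Usp18), and DESeq2 called 4 (Ddx58, Ifit1, Rsad2 and Usp18). The shares of all genes called in these fits are not given here. The median log2 difference over the members was 0.33, and 36 of the 46 were higher in WT Cre on average, beside 11206 of the 22449 genes. Single libraries moved these counts. Without WT Cre control 3, 10 members rose against WT Cre in place of 16, and without WT Cre control 2, 4 fell in place of 7. Without MCS control 1, 17 rose against MCS in place of 26. Those that fell against MCS numbered 1 without MCS control 2 and 2 without MCS control 3 or KO 3, in place of 4. Scaling to library size alone gave 18 that rose and 4 that fell against WT Cre, and 29 and 0 against MCS.

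Interferons themselves were hardly detected. Of 21 ligand genes, 17 had no count in any library, which allows up to 3 counts in each. Ifng, the type II interferon of T and NK cells, had 0, 2 and 1 counts in the WT Cre controls, 1, 1 and 0 in the MCS controls and 1, 5, 3 and 6 in the KO livers. Ifng passed the test against the 6 controls (edgeR adjusted p = 0.0261) and not against WT Cre (adjusted p = 0.103) or MCS (adjusted p = 0.0678). These few counts carry no reliable fold. Ifnk had 5 counts over the controls and 8 over KO, and Ifna7 and Ifnz had 1 count each over all libraries.

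Of 9 receptor chains and JAK kinases, 5 rose and none fell against the 6 controls, where 19.7% of all genes rose, the share to hold against the lists that follow as well. Against WT Cre 4 of the 9 rose and against MCS 3, and the calls of Jak2 and Ifnlr1 were made against neither. Against the 6 controls the type I receptor chains Ifnar1 (0.20, adjusted p = 0.183) and Ifnar2 (-0.06, adjusted p = 0.653) did not pass the test on their log2 fold changes. The type II receptor chain Ifngr1 rose, with means of 16.2 CPM in the controls (SD 2.19, n = 6) and 27.4 CPM in KO (SD 9.85, n = 4) and KO 4 the highest liver. Ifngr2 had a log2 fold change of 0.23 (adjusted p = 0.292). Il10rb, shared by the receptors for type III interferon and interleukin 10, rose by 1.19, and Ifnlr1, the other type III chain, by 1.16 on the log2 scale from 1 to 4 counts per control. Among the other IRFs, Irf2 (-0.71) and Irf3 (-0.39) fell, each value a log2 fold change.

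Among 12 adaptors and kinases of nucleic acid sensing, 6 rose and 1 fell. Zbp1, a sensor of Z-form nucleic acid, measured 7.96, 19.6 and 10.3 CPM in WT Cre controls 1 to 3, 5.66, 7.86 and 6.04 CPM in MCS controls 1 to 3, and 52.4, 64.1, 62.2 and 60.6 CPM in KO 1 to 4. All KO livers stood far above all controls, KO 1 included (log2 fold change 2.64, SE 0.31, edgeR adjusted p = 0.000156). The endosomal receptors Tlr9 and Tlr7 rose by 2.85 and 1.93 on the log2 scale, from means of 0.199 and 1.29 CPM in the controls. Mavs, the adaptor of Ifih1 and Ddx58 on mitochondria, fell (log2 fold change -0.74, SE 0.11, edgeR adjusted p = 0.000296). Of 12 genes that restrain sensing or signalling, 3 rose (Socs1, Samhd1 and Trim30a), 2 fell, and Trex1 was listed at 0 in every library. Rnaseh2c, a subunit of the nuclease that removes RNA from DNA duplexes, measured 33.2, 37.5 and 37.0 CPM in the WT Cre livers, 38.1, 44.3 and 30.5 CPM in the MCS livers, and 13.9, 14.6, 15.8 and 13.5 CPM in the KO livers. Every KO liver lay below the lowest control (log2 fold change -1.35, SE 0.11, edgeR adjusted p = 3.47e-06), and Rnaseh2a fell too (-0.54).

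Further interferon-stimulated genes outside the members numbered 54, of which 24 rose and 1 fell. The chemokine Cxcl10, which draws T cells, measured 5.46, 8.89 and 5.32 CPM in WT Cre controls 1 to 3, 2.73, 4.55 and 6.09 CPM in MCS controls 1 to 3, and 11.6, 52.9, 48.0 and 27.4 CPM in KO 1 to 4. KO 1 was the lowest of the KO livers and above all controls (log2 fold change 2.67, SE 0.42, edgeR adjusted p = 0.00105). Gbp9 and Slfn1 rose by 2.53 and 2.09 on the log2 scale. The gene that fell was Ifitm3 (-0.54). Of 16 further genes of the MHC class I machinery 9 rose and none fell, among them the peptide editor Tapbp (0.74) and the class I genes H2-Q6 (0.86) and H2-T24 (0.77). Over all 110 genes of these pathway lists that were tested, 49 rose and 6 fell, with a median log2 fold change of 0.40.

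Markers of immune cells moved in the same livers. Of 12 markers of Kupffer cells and macrophages 11 rose, and their summed level was 267 to 322 CPM in WT Cre, 274 to 512 CPM in MCS and 607 to 1358 CPM in KO. Of 14 markers of T and NK cells 13 rose, from 3.54 to 6.96 CPM in the controls and 7.36 to 34.0 CPM in KO. B cell and plasma cell markers summed to 2.24 to 6.16 CPM in the controls, 4.69 CPM in KO 1 and 53.4 to 79.8 CPM in KO 2 to 4, and 3 of 6 rose. Most of the sum in KO 2 to 4 was Jchain. Dendritic cell markers (3 of 7 rose) ran from 9.60 to 10.7 CPM in the controls and 10.8 to 20.5 CPM in KO. Neutrophil markers (4 of 6 tested rose) ran from 3.75 to 13.2 CPM and from 6.26 to 28.5 CPM, and the defining markers Ly6g and Mpo had at most 3 counts in any library. Markers of endothelial cells rose in 2 of 8 cases, near the share of all genes (19.7%), with none past a log2 fold change of 1, and their sum ran from 194 to 245 CPM and from 217 to 374 CPM. The counts for macrophage, dendritic cell and endothelial markers were the same against either kind of control, and the other counts differed. Against WT Cre, 11 macrophage, 12 T and NK, 2 B cell, 3 dendritic cell, 3 neutrophil and 2 endothelial markers rose. Against MCS the counts were 11, 10, 5, 3, 1 and 2 in the same order. The shares of all genes that rose were 15.3% against WT Cre and 17.3% against MCS. None of the 8 hepatocyte markers rose and 6 fell, beside 16.6% of all genes that fell. Against WT Cre 3 of the 8 fell, and against MCS 7 fell. Alb, the plasma protein that marks hepatocytes, stood at 83710 to 118201 CPM in the controls and 61393 to 75941 CPM in KO. The part of these cell types in the change of the interferon-stimulated genes was not tested.

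**Figure D4:**
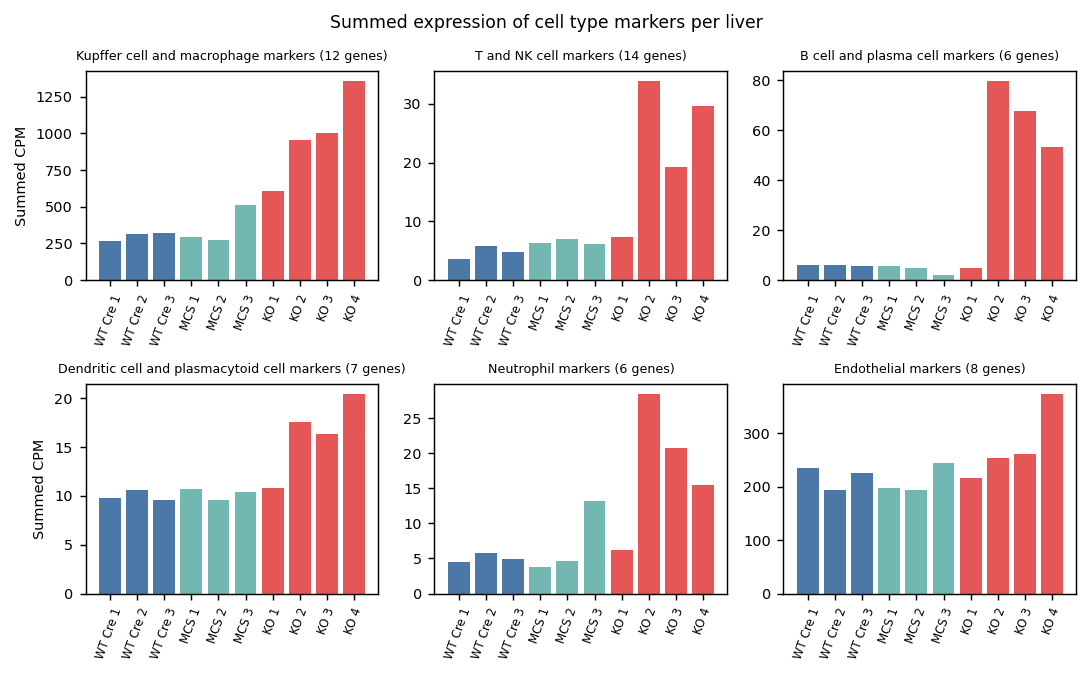
Summed CPM of 6 lists of cell type markers (vertical axes, from 0) in each of the 10 livers, with WT Cre in blue, MCS in teal and KO in red. KO 2 to 4 are the highest livers in all 6 lists, KO 1 lies at the level of the controls for B and plasma cells, and MCS 3 is the highest control for macrophages and neutrophils.

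A contrast between genes within KO 1 was noticed after the values were seen, and the genes named for it were picked. KO 1 exceeded every control in 13 of the 46 members, near the share of all genes (24.7%). It lay below every control in 9 members, beside 25.3% of all genes. In that liver the summed macrophage markers, at 607 CPM, exceeded the highest control (512 CPM), the sums of T and NK and of dendritic cell markers were just above the highest control, and those of neutrophil and of B cell and plasma cell markers lay within the controls. Psmb8, Psmb9 and Oasl1 of KO 1, and Zbp1 from outside the members, reached 78.6, 42.7, 46.2 and 52.4 CPM, above every control. Cgas, Gbp2, H2-D1, Irf1, Isg20, Oas3, Tap2 and Tmem173 of KO 1 also lay above every control. Irf8, Gbp5, Oas1a and Oas2 of KO 1 lay within the range of the controls, at 8.93, 2.48, 4.04 and 5.67 CPM. WT Cre control 2, in which most members were high, had summed levels of 312 CPM for macrophage markers and 5.81 CPM for T and NK markers, within the range of the other controls. The part of the depth of KO 1 in its values was not tested.

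Levels of different genes can be compared only per length, for which the authors' FPKM values were used. In the controls the mean FPKM was 2113 for B2m, 1007 for H2-K1 and 209.9 for H2-D1, and 145 for Bst2, 121 for Ifi27 and 114 for Iigp1. The lowest means were 0.246 for Oas3 and 0.0950 for Cgas. Of the 45 members with FPKM values, 19 had a control mean over 10 and 5 a mean under 1. These 5 were Ifit2, Mx1, Gbp5, Oas3 and Cgas, and all of them rose. B2m and H2-K1, which fell, were at the top of that order. The SDs of Bst2, Ifi27 and Iigp1 over the 6 controls were 37.3, 23.6 and 24.1 FPKM. Whether these neighbours in the order differ was not tested.

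Several members are neighbours in the genome (mm10). The 4 Gbp genes span 144.0 kb at chr3:142493978-142638008, and 3 of them rose. Oas1a, Oas2 and Oas3 span 177.2 kb at chr5:120730333-120907521, and Oasl1 and Oasl2 span 41.0 kb at chr5:114896936-114937915. All 5 of these rose. Ifit1, Ifit2 and Ifit3 span 99.3 kb at chr19:34550694-34650009, and Ifit2 alone of these rose. In all, 22 of the 46 members overlap another annotated gene and the strand setting of the counting was not stated, so their reads could be shared.

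RefSeq promoters were found for 34 of the 46 members. Within 250 bases before the RefSeq start, an ISRE (GAAANNGAAA on either strand) was found in 15 of the 34 (44.1%), beside 3.46% of 27025 genes. A GAS (TTCNNNGAA, which reads alike on both strands) was found in 11 of the 34 (32.4%), beside 8.13% of those genes. The letters of both motifs can overlap in a promoter. Of the members that rose, 5 of 17 had an ISRE and 7 of 17 a GAS. Of those that fell, 1 of 4 had an ISRE, which was B2m, and none a GAS. Of those that did not pass the test, 9 of 13 had an ISRE, among them Isg15, Ifit1, Ifit3, Rsad2 and Stat2, and 4 of 13 a GAS. These are matches of letters, and the difference between these shares was not tested.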

How the data were processed

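Poly(A) RNA-seq of 10 mouse livers was analysed from the tables that the authors deposited. For the counts, the authors used Trim Galore, STAR on mm10 and HOMER, while the labels also name HTSeq. The deposited counts are whole numbers without normalization. The authors also deposited FPKM values (fragments per kilobase of transcript, scaled to library depth), and Cufflinks is named in the submitters' processing notes without a stated role. An empty FPKM cell was taken as 0. Whether counting used strand, and how reads matching several places were treated, is not given in the sources used here. KO columns were matched to the titles by number. Control columns 1 to 3 and 4 to 6 were matched to the WT Cre and MCS livers by the number in the library names, and every value for one kind of control rests on that match. The genotype field of the floxed mice reads HIRA fl/fl, and groups follow the titles. The labels give no batch.

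A gene needed a sum of 10 counts across the livers. The 22449 genes that remained were tested in edgeR (version 4.0.16, in R version 4.3.3) by quasi-likelihood, two-sided, with TMM scaling, robust dispersions and no covariates. P-values carry the Benjamini-Hochberg adjustment across them all, and calls were made at an adjusted p under 0.05. One fit had KO and pooled controls as its 2 groups, and another kept the 3 groups apart with a shared dispersion. SE was obtained from the log2 fold change and its F statistic. Alternatives were DESeq2 1.42.0, limma-voom (limma 3.58.1), other scalings and filters, a replicate block, limma on log2(FPKM + 1) and log2(FPKM + 0.1), and each liver left out in turn. The edgeR step was tested on simulated counts. Same-numbered WT Cre and MCS livers had correlated deviations (0.116 to 0.147), and correlations of same-numbered KO and control livers ran from -0.153 to 0.233. The correlation of MCS control 3 with KO 4, of unlike number, was larger (0.357). Whether the numbers pair livers is therefore not known, and the replicate block was used only as an alternative.

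The members, role lists, pathway lists and marker lists were chosen with earlier results of these data known. Members were given in full by a rule: the 2 largest changes that passed in each role, the highest CPM, all that fell, and a short fixed set of central genes (Stat2, Irf9, Cgas, Tmem173, Ddx58, Ifih1, B2m, Usp18). Of the pathway lists, ligands with any count, receptors and the 3 largest changes of each list were named, except that 2 genes are not reported here. Isg15, Ifit1, Mavs, Rnaseh2a, Ifitm3, Samhd1 and the contrast in KO 1 were added after their values were seen. Gene positions are from GENCODE M21 (mm10) and promoter sequences from RefSeq (GRCm38.p6). P-values cover the spread between livers.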

Additional observations from a re-analysis of the deposited data

Results flagged for a closer look

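The members were tested in the same livers, so the tests below are not independent of one another. In 92 tests of whether a single liver stood far from the others of its group, 11 values did, where independent tests would give about 1 in 20 by chance. Of these, 8 were WT Cre control 2 as the highest of the 6 controls. That liver held 91.35 CPM of Irf7 (next highest control 56.8), 52.79 CPM of Ifit1 (22.59), 26.89 CPM of Ifit3 (15.67) and 12.1 CPM of Ifi44 (5.919). It also held 47.02 CPM of Isg15 (21.2), 15.4 CPM of Gbp3 (9.331), 20.3 CPM of Gbp7 (14.09) and 138.3 CPM of Irgm1 (88.04). Among the KO livers, KO 1 was lowest in Oas2 at 5.669 CPM (next 13.36) and highest in Bst2 at 164.0 CPM (next 133.0). KO 3 was highest in Isg15 at 32.91 CPM (next 29.02).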

How the results depend on the processing

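The median log2 fold change of the members against the 6 controls ran from 0.388 to 0.610 over all alternatives. The number of members that rose ran from 18 to 24 and their direction held for all named members. Those that fell depended on more choices. Against the 6 controls they numbered 2 under library size alone, 2 with the replicate block, 1 under each of the 3 FPKM settings, 6 with the kinds of control as separate groups and 2 to 5 with 1 liver left out, and Ifi35 alone passed in all of these. Past the fold, 7 members rose under log2(FPKM + 1) with and without low values removed, and DESeq2 counted 1 that fell. Against WT Cre, those that fell numbered 4 under library size alone, 1 under log2(FPKM + 1), 2 under log2(FPKM + 0.1) and 4 with low FPKM values removed, and 4 to 8 with 1 liver left out, while those that rose ran from 10 to 18. Against MCS, none (0) fell under library size alone or under any FPKM setting, 2 fell with the replicate block and 1 to 4 with 1 liver left out, while those that rose ran from 17 to 26 with 1 liver left out and reached 29 under library size alone. Between WT Cre and MCS, 4 members were called by DESeq2, 4 with the replicate block, 1 with no filter beyond 1 count, and 0 to 1 with 1 liver left out. The block gave 19 members that rose against the 6 controls and lost Mx1, Oas1a, Oasl1, B2m and H2-K1. The fit with separate kinds of control added Usp18 upwards and Dhx58 and Ifit1 downwards. The replicate block rests on the replicate numbers of the livers, which KO and controls share without a known pairing. The causes of these differences were not tested. Depth limits the ligands, Cgas and Ifnlr1, and counts of a few reads carry no firm fold.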
